A study of Mus musculus with 27 samples.

Results

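The genes described here are 10 that pluripotent mouse cells transcribe and most other cells do not: Eras, Utf1, Dppa2, Dppa3, Dppa4, Dppa5a, Crxos, Gdf3, L1td1 and Lin28a. They were taken by symbol from tables of 38352 genes, each symbol matched 1 gene, and all 10 were among the 13614 genes tested. The cells were E14Tg2a, a wild-type mouse embryonic stem cell line kept on gelatin in serum with leukemia inhibitory factor and 2i, a pair of kinase inhibitors that keeps them naive. They were exposed to hydrogen peroxide (H2O2), a membrane-permeable oxidant, for 30 min at 500 µM per the treatment protocol (the series description writes mM), and then given spent medium from untreated cells. The treated groups were collected at 0.5 h (the end of the exposure), at every even hour from 2 h to 10 h and at 24 h, and the untreated groups at 0 h and 24 h. Each group had 3 biological replicates, which gave 27 libraries of poly(A) RNA in 9 groups from 3 independent time courses of this single line. The comparison asks whether and when a short oxidant pulse alters these genes and whether their levels come back within a day. No untreated group was collected between 0 h and 24 h. Up to 10 h, effects of peroxide, time in culture and the medium change therefore cannot be told apart.

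Embryonic stem cell restricted genes are switched on in the early embryo and the germ line, are read by the OCT4, SOX2 and NANOG network, and are shut down when cells differentiate, so they serve as markers of the pluripotent state. Their products do different jobs. ERAS is a RAS-like GTPase that is always active and feeds phosphoinositide 3-kinase (PI3K), GDF3 is a secreted ligand of the transforming growth factor beta family, and LIN28A is an RNA-binding protein that blocks maturation of the let-7 microRNAs. L1TD1 is an RNA-binding protein derived from a LINE-1 retrotransposon, UTF1 is a chromatin-bound factor, and CRXOS is a homeobox protein. DPPA2 and DPPA4 bind each other, sit on chromatin and act upstream of genes of the 2-cell embryo, DPPA3 (also called STELLA) protects methylated DNA in the early embryo, and DPPA5A carries an RNA-binding domain of the KH type.

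Levels are given in FPKM, the authors' fragment density scaled to gene length and library size, a scale on which different genes can be compared. The number of reads behind a value is unknown; summed FPKM ran from 294485 to 395760 per library, and relative depth from 0.982 to 1.10. All 10 defining markers of embryonic stem cells were at 1 FPKM or more in all 27 libraries, with Pou5f1 between 402 and 938 FPKM. The 4 libraries that stood apart were untreated 0 h replicate 3, 2 h replicate 1, 8 h replicate 3 and 10 h replicate 3. They were taken from earlier results of these data, for a GC trend unlike that of the other libraries of their own groups. Their values climbed with GC content by 0.357, 0.321, 0.192 and 0.203 on the log2 scale per 10 percentage points, against -0.0205 to 0.0840 in the other libraries of those groups. The same slope was 0.130 to 0.205 in the 3 libraries at 4 h, which were kept, and 0.0235 to 0.178 in untreated cells at 24 h. The ribosomal protein genes of the 4 were shifted by 0.897, 0.789, 0.478 and 0.363; the 3 libraries at 4 h had shifts of 0.281 to 0.438, and untreated 24 h replicates 3 and 1 of 0.443 and 0.383. For the 10 genes, calls against untreated cells that move without the 4 are given with and without them. Results for other named genes and for lists of genes are given with all libraries only. Hepatocyte transcripts were found in some libraries: 19 of 29 markers reached 1 FPKM somewhere, and their sum was 60.5 to 88.0 FPKM at 0.5 h, 56.8 to 76.8 FPKM in untreated cells at 24 h, 60.5 FPKM in 6 h replicate 3, 80.8 and 69.4 FPKM in 8 h replicates 1 and 2, 9.20 FPKM in untreated 0 h replicate 3, and 1.61 to 2.82 FPKM elsewhere, with Alb at 0 in 6 libraries. Fibroblast markers summed to 1.92 to 4.10 FPKM. Astrocyte markers summed to 7.65 to 8.09 FPKM at 0.5 h, 3.66 to 8.10 FPKM at 2 h, 4.72 to 5.13 FPKM at 4 h, 7.37 to 14.7 FPKM at 6 h, 13.5 to 15.4 FPKM at 8 h and 7.05 to 12.99 FPKM at 10 h, against 2.86 to 3.85 FPKM in untreated cells at 0 h, and to 4.88 to 9.77 FPKM in treated and 7.64 to 7.93 FPKM in untreated cells at 24 h. Gfap and Lcn2 reached 1 FPKM in 17 libraries each and 4 of the 6 astrocyte markers in at least 1; the part of these levels in the falls described next was not tested. In bulk RNA, fewer cells of a type and less RNA per cell cannot be told apart.

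At the end of the exposure and at 2 h none of the 10 genes passed the test, and from 4 h most of them were lower than in untreated cells. The test was a limma model of log2(FPKM + 1) over all 27 libraries, with p-values adjusted over all 13614 tested genes and an adjusted p below 0.05 called changed; fold changes on this scale understate those of genes near 1 FPKM. At 4 h 6 of the 10 fell, at 6 h 8, at 8 h 6 and at 10 h 6, and the others did not pass at these times. Of all tested genes, 12.1%, 20%, 11.6% and 9.43% fell at 4 h, 6 h, 8 h and 10 h, and 26.3%, 42.3%, 40.7% and 31.7% changed in either direction. At 0.5 h and 2 h, 0.0808% and 1.07% of all tested genes changed, and 1 of the 10 had an unadjusted limma p below 0.05 at each time. Without the 4 libraries 7 fell at 4 h, 8 at 6 h, 7 at 8 h and 8 at 10 h, 1 rose at 4 h (Dppa5a) and 1 fell at 2 h (Gdf3), and of all tested genes 3772, 4177, 2397 and 1930 then fell at 4 h, 6 h, 8 h and 10 h. With only the libraries of the groups compared in the fit, 3 fell at 4 h, 7 at 6 h, 4 at 8 h and 2 at 10 h. The calls lost in that fit were Utf1, Crxos and L1td1 at 4 h (adjusted p = 0.175, 0.0504 and 0.0574), Dppa4 at 6 h (0.221), Utf1 and Dppa2 at 8 h (0.1 and 0.0803), and Eras, Utf1, Dppa2 and Lin28a at 10 h (0.0529, 0.177, 0.185 and 0.186).

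The median log2 change of the 10 genes was -0.10 at 0.5 h and at 2 h, -0.51 at 4 h, -0.93 at 6 h, -0.60 at 8 h, -0.50 at 10 h and -0.19 at 24 h. Over all tested genes the median was 0.05, 0.02, 0.01, 0.00, 0.11, 0.11 and 0.07 at the same times. Median-of-ratios scaling moved the median of all genes to -0.02 at 8 h and -0.01 at 10 h. It changed the split of all changed genes at 8 h to 2797 higher and 2603 lower, against 3969 and 1576 unscaled, and at 10 h to 2055 and 2092, against 3025 and 1284; of the 10 genes 9 and 8 were then lower. All 3 treated libraries lay below all 3 untreated ones for 2 of the 10 genes at 2 h (Dppa2 and Gdf3). The same held for 6 at 4 h, 9 at 6 h, 7 at 8 h and 7 at 10 h. Of all tested genes 2.64%, 13.7%, 21.3%, 11.1% and 9.66% lay below in this way at the same times. Among the treated times up to 10 h, 7 of the 10 genes had their lowest mean at 6 h, Crxos and Dppa3 at 10 h and Dppa5a at 0.5 h.

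**Figure D1:**
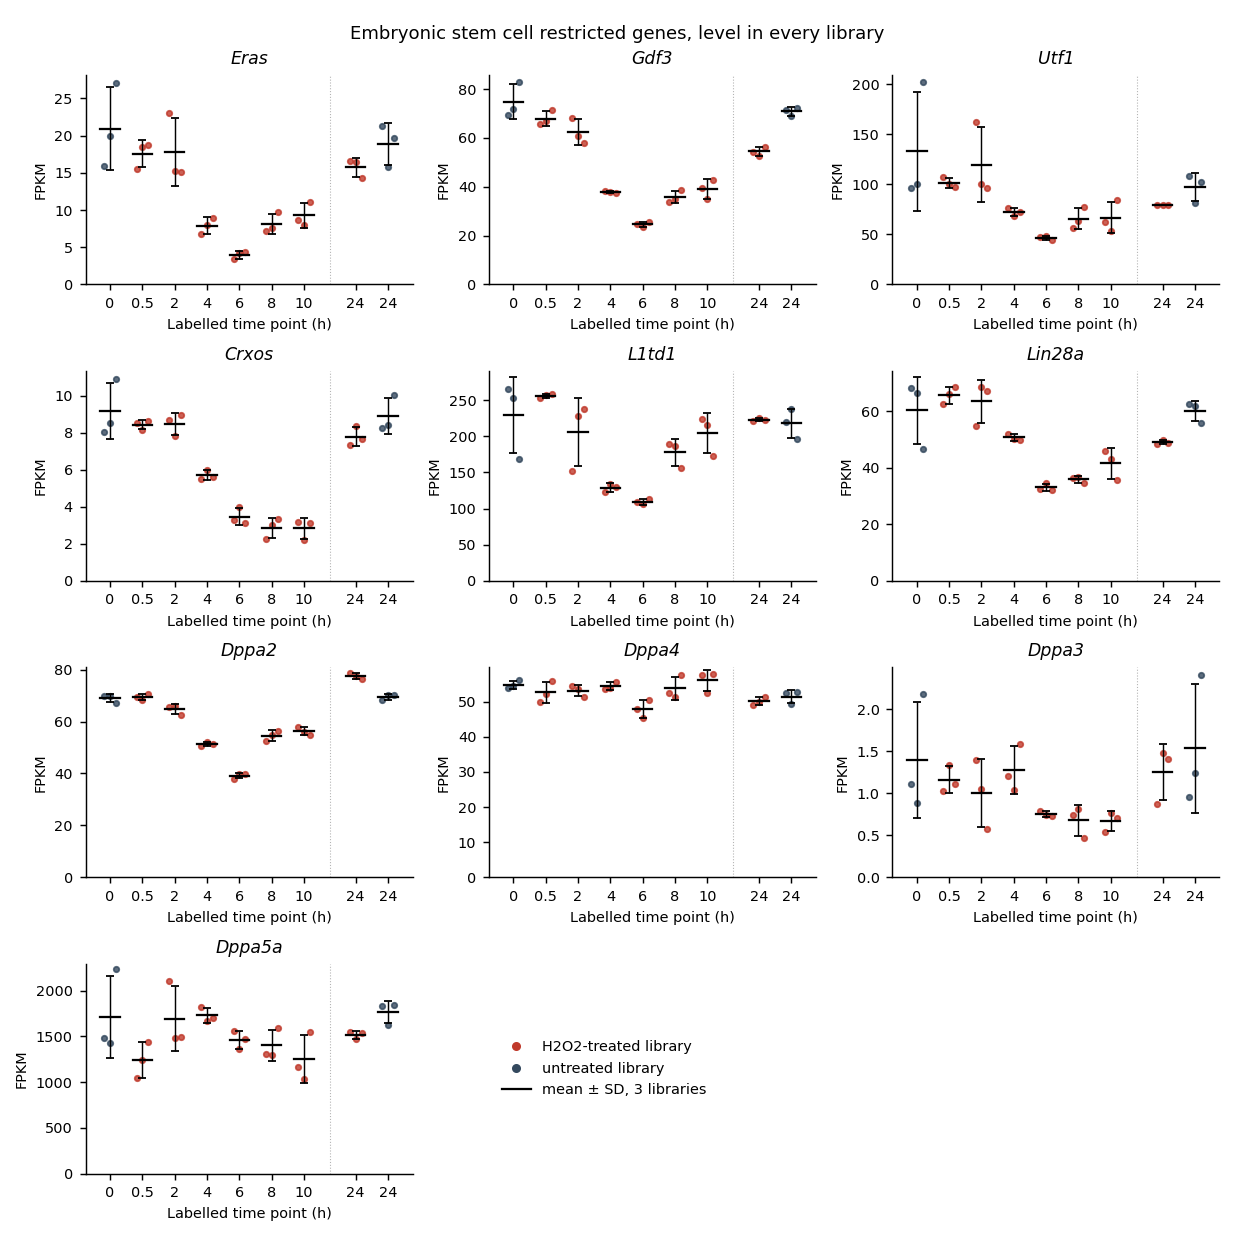
Level of each gene in FPKM (vertical axes, from 0) in every library against the labelled time point in hours; red points are H2O2-treated libraries, dark points untreated ones, and bars the mean ± SD of 3 libraries, with treated and untreated 24 h to the right of the dotted line. Eras, Gdf3, Utf1, L1td1, Lin28a and Dppa2 are lowest at 6 h, Crxos is lowest at 8 h and 10 h, and Dppa4 stays between 45.5 and 58.0 FPKM throughout.

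Sequence upstream of the start site is shown for 4 genes that fell at 6 h, so that their promoters can be compared base by base. RefSeq promoters (GRCm38.p6) were given for 5 of the 10 genes, Eras, Utf1, Crxos with 3 start sites, L1td1 and Lin28a. Each line runs 5′ to 3′ on the gene's strand and leaves out bases inside the gene model: Eras chrX:7928608-7928857 on the minus strand, Utf1 chr7:139943606-139943788 on the plus strand, L1td1 chr4:98726504-98726733 on the plus strand and Lin28a chr4:134018842-134019066 on the minus strand. Capitals mark GGGCGG or its reverse complement CCGCCC, the core bound by KLF and SP family factors.
Eras: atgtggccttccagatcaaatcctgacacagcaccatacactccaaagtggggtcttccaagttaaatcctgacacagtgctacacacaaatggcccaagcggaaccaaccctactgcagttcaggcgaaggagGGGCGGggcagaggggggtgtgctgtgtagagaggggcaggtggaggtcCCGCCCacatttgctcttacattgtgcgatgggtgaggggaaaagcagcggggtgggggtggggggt
Utf1: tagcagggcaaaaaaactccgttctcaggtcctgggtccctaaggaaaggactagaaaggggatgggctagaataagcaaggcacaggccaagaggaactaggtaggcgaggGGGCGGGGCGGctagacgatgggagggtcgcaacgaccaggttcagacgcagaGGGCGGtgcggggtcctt
L1td1: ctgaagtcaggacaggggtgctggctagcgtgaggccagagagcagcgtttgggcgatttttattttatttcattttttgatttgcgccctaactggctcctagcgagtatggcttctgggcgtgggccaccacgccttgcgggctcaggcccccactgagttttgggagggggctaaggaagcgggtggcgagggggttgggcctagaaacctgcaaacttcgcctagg
Lin28a: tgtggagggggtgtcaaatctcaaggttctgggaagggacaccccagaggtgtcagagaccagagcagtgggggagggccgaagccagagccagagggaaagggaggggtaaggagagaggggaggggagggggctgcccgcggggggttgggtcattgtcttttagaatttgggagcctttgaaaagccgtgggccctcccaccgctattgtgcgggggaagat

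In the full 250 bases before the RefSeq start, GGGCGG in either direction was found 2 times for Eras (first letters 116 and 67 bases before the start), 4 times for Utf1 (138, 133, 85 and 56 bases, the first pair overlapping), once at the second Crxos start, and not for L1td1 or Lin28a. Of 32851 promoters of the same length, 32.7% held it. The octamer ATGCAAAT, the SOX core AACAATG and TATAAA were in none of the 7 windows, against 1.60%, 3.29% and 12.4% of all promoters, and the shorter SOX core ACAAAG was at the second Crxos start only, against 16.5%. The observed over expected CpG ratio was 0.638 for Utf1, 0.566 for L1td1, 0.336 for Lin28a and 0.299 for Eras, with a median of 0.374 over all promoters. At the 3 Crxos starts it was 0.148, 0.175 and 0. All 5 genes with a promoter sequence fell at 6 h, with or without the GGGCGG core. These windows therefore hold no gene that did not fall, and the core cannot be compared between the 2 kinds.

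Eras (chrX:7924276-7928607, minus strand, GRCm38) had the largest fall of the 10. It was at 3.37, 4.18 and 4.37 FPKM at 6 h, against 15.9, 19.9 and 27.04 FPKM in untreated cells at 0 h. Every 6 h library was thus below every untreated one and the mean was 19.0% of the untreated mean. The log2 change at 6 h was -2.12 ± 0.18 (SE; limma adjusted p = 3.87e-09), and 0.01% of tested genes had a lower value. Earlier, 0.5 h libraries had 15.5, 18.5 and 18.7 FPKM and 2 h libraries 23.0, 15.3 and 15.1 FPKM, both overlapping the untreated range. At 4 h the level was 6.71, 8.01 and 8.97 FPKM and the log2 change was -1.28 ± 0.18 (adjusted p = 1.09e-05).

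Eras then came part of the way back. Its level was 7.23, 7.59 and 9.71 FPKM at 8 h and 8.71, 7.98 and 11.1 FPKM at 10 h, and the step from 6 h to 8 h was a rise of 0.88 ± 0.18 (adjusted p = 0.000825). At 24 h it was at 16.6, 16.5 and 14.3 FPKM in treated cells, against 21.3, 15.8 and 19.7 FPKM in untreated cells, and these ranges overlapped (log2 change -0.24 ± 0.18, adjusted p = 0.344). In order of mean level, the 2 untreated groups, 2 h, 0.5 h and treated 24 h overlapped from one to the next. A gap separated treated 24 h from 10 h, then 10 h, 8 h and 4 h overlapped, and 6 h was separate below them. Pcsk1n, which overlaps Eras on the other strand, was at 1.24 ± 0.07 FPKM at 6 h and 3.06 ± 2.75 FPKM in untreated cells at 0 h (SD, n = 3 each); the sources used here do not say whether the counting used strand.

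Gdf3 (chr6:122605403-122610087, minus strand) followed nearly the same course with less spread. At 6 h it was at 24.8, 23.6 and 25.7 FPKM, against 69.5, 71.9 and 83.0 FPKM in untreated cells at 0 h. The libraries did not overlap and the log2 change was -1.56 ± 0.08 (adjusted p = 1.45e-12). It had already fallen at 4 h, where the mean was 37.8 ± 0.34 FPKM (SD, n = 3; log2 change -0.96 ± 0.08, adjusted p = 5.19e-09). At 8 h and 10 h the changes were -1.04 ± 0.08 and -0.92 ± 0.08 (adjusted p = 1.63e-09 and 1.94e-08).

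Gdf3 was also lower at 24 h. Treated cells then had 54.4, 52.8 and 56.5 FPKM, against 71.5, 68.9 and 72.3 FPKM in untreated cells of the same time. No library overlapped and the log2 change was -0.37 ± 0.08 (adjusted p = 0.00352). At 2 h the change was -0.26 ± 0.08 with adjusted p = 0.168, and -0.25 with adjusted p = 0.0239 without the 4 libraries. In order of mean level, the untreated groups, 0.5 h and 2 h overlapped from one to the next. All 2 h libraries (57.9 to 68.2 FPKM) nevertheless lay below all untreated 0 h libraries (69.5 to 83.0 FPKM). Treated 24 h stood apart below these groups, then 10 h, 4 h and 8 h overlapped from one to the next, and 6 h was separate and lowest.

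Utf1 (chr7:139943789-139945112, plus strand) was at 47.1, 48.4 and 44.4 FPKM at 6 h, against 96.7, 100.2 and 201.8 FPKM in untreated cells at 0 h. The third untreated library is 1 of the 4 that stand apart, and no other library was above 163 FPKM. The log2 change was -1.41 ± 0.22 (adjusted p = 2.55e-05) with it and -1.06 (adjusted p = 8.75e-05) without it. At 4 h, 8 h and 10 h the changes were -0.78, -0.93 and -0.92 (SE 0.22 each; adjusted p = 0.0114, 0.00211 and 0.00323). Without untreated 0 h replicate 3 they were -0.44, -0.59 and -0.58, and the 4 h call was lost (adjusted p = 0.0767). At 24 h treated cells had 79.2, 79.3 and 79.1 FPKM, against 108.3, 81.3 and 101.9 FPKM in untreated cells; the treated libraries lay below all untreated ones, but the change of -0.28 ± 0.22 did not pass (adjusted p = 0.371).

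Crxos (chr7:15882617-15904020, plus strand) had its lowest means at 8 h and 10 h. Its level was 5.49 to 6.00 FPKM at 4 h and 3.28, 3.97 and 3.10 FPKM at 6 h, then 2.24, 2.99 and 3.33 FPKM at 8 h and 3.19, 2.18 and 3.13 FPKM at 10 h. Untreated cells at 0 h had 8.05, 8.55 and 10.9 FPKM, above every library from 4 h to 10 h. The log2 changes were -0.59, -1.19, -1.40 and -1.41 at 4 h, 6 h, 8 h and 10 h (SE 0.12 each; adjusted p = 0.000747, 6.21e-08, 1.15e-08 and 2.1e-08). The ranges of 6 h, 8 h and 10 h overlapped, and the steps between them did not pass the test.

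By 24 h Crxos was at 7.34, 8.38 and 7.65 FPKM in treated cells, against 8.25, 8.44 and 10.0 FPKM in untreated cells, with overlap (log2 change -0.17 ± 0.12, adjusted p = 0.325). The step from 10 h to 24 h was a rise of 1.21 ± 0.12 (adjusted p = 3.23e-07), the largest step of any of the 10 genes between consecutive times.

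Among the RNA-binding proteins, L1td1 (chr4:98726734-98738480, plus strand) passed the test at 4 h and 6 h. It had 123 to 134 FPKM at 4 h and 108.9, 105.6 and 112.8 FPKM at 6 h, against 265.6, 252.8 and 168.5 FPKM in untreated cells at 0 h. The lowest untreated value belongs to replicate 3, which stands apart, and even so no library overlapped at either time. The log2 changes were -0.80 and -1.03 (SE 0.15 each; adjusted p = 0.000448 and 1.18e-05). At 8 h and 10 h L1td1 was at 156 to 190 FPKM and 173 to 224 FPKM, with changes of -0.34 (adjusted p = 0.0819) and -0.14 (adjusted p = 0.493). Without the 4 libraries these were -0.46 and -0.24 and both passed (adjusted p = 1.3e-05 and 0.00706). At 24 h treated cells had 223 ± 1.6 FPKM and untreated cells 218 ± 20.3 FPKM (SD, n = 3 each).

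Lin28a (chr4:134003330-134018841, minus strand) passed the test from 6 h to 10 h. It was at 32.6, 34.4 and 32.1 FPKM at 6 h, against 68.0, 66.3 and 46.7 FPKM in untreated cells at 0 h, and the groups did not overlap. Its changes were -0.83, -0.72 and -0.52 at 6 h, 8 h and 10 h (SE 0.11 each; adjusted p = 3.29e-06, 2.95e-05 and 0.00124). At 4 h the level was 49.8 to 52.0 FPKM and the change was -0.23 (adjusted p = 0.153), or -0.40 (adjusted p = 3.77e-06) without the 4 libraries. At 24 h treated cells had 48.5, 49.9 and 48.6 FPKM, against 62.5, 61.7 and 55.9 FPKM in untreated cells. These libraries did not overlap, yet the change of -0.29 ± 0.11 did not pass (adjusted p = 0.0926); it passed without the 4 libraries, which enter only the estimate of spread (adjusted p = 7.1e-05).

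Dppa2 and Dppa4, neighbours on chromosome 16 (chr16:48303908-48319723 and chr16:48283733-48294237, both on the plus strand and 9671 bases apart), differed in how much they changed. Dppa2 was at 38.0, 39.8 and 39.6 FPKM at 6 h, against 70.0, 70.1 and 67.2 FPKM in untreated cells at 0 h. That is a log2 change of -0.80 ± 0.05 (adjusted p = 7.6e-12) with no overlap. At 4 h, 8 h and 10 h the changes were -0.42, -0.33 and -0.29 (SE 0.05 each; adjusted p = 3.49e-07, 6.02e-06 and 5.3e-05), scaling made those at 8 h and 10 h -0.50 and -0.44, and both were lost with only the groups compared (adjusted p = 0.0803 and 0.185). Dppa4 was at 48.1, 45.5 and 50.7 FPKM at 6 h, against 53.9, 54.5 and 56.2 FPKM in untreated cells, a change of -0.19 ± 0.06 (adjusted p = 0.0141). That call was lost without 6 h replicate 2 (-0.15, adjusted p = 0.0814) and after correction for GC content and length (-0.10, adjusted p = 0.0765), and at the other treated times Dppa4 did not pass.

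The Dppa2 to Dppa4 ratio within a library does not depend on how a library was scaled, but GC and length trends can move it. The longest transcript has 43.6% GC and 2447 bases for Dppa2, and 49.0% and 1479 bases for Dppa4. At 24 h the GC slope was -0.0267 to 0.00193 in treated and 0.0235 to 0.178 in untreated libraries. The ratio was not corrected for these trends, and their part in it was not tested. It was 1.26 ± 0.06 in untreated cells at 0 h, 1.32 ± 0.06 at 0.5 h, 1.22 ± 0.01 at 2 h, 0.943 ± 0.02 at 4 h, 0.816 ± 0.05 at 6 h, 1.02 ± 0.04 at 8 h, 1.01 ± 0.06 at 10 h and 1.55 ± 0.06 at 24 h (SD, n = 3 each). The 24 h value compares with 1.35 ± 0.07 in untreated cells of that time, and the ranges of 1.49 to 1.60 and 1.30 to 1.43 did not overlap. At 24 h Dppa2 was at 78.9, 77.7 and 76.6 FPKM in treated cells, against 68.3, 70.4 and 70.2 FPKM in untreated cells (log2 change 0.16 ± 0.05, adjusted p = 0.0266). The rise was lost under scaling (0.09, adjusted p = 0.27), after the GC and length correction (0.09, adjusted p = 0.171) and without 1 library in 5 of 6 leave-one-out fits (0.14 to 0.17, adjusted p from 0.0569 to 0.103).

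**Figure D2:**
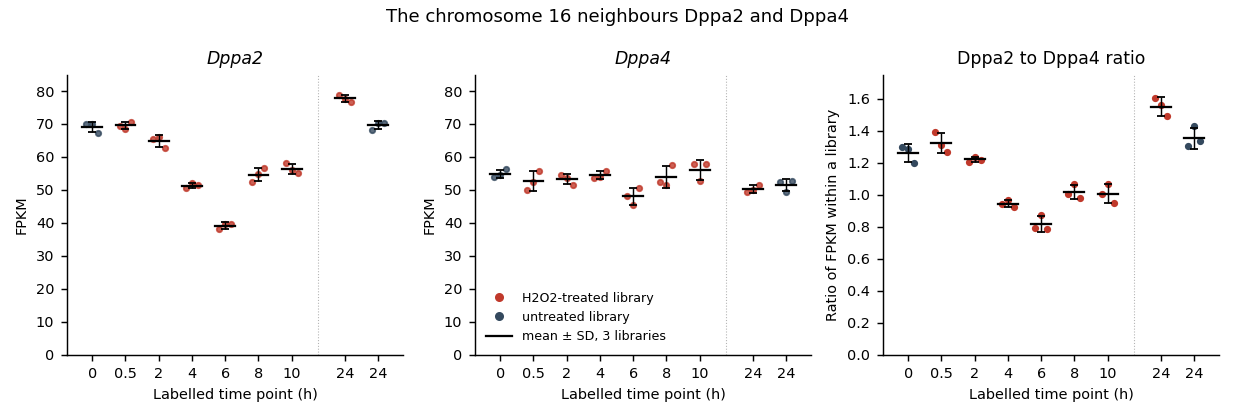
Level in FPKM of Dppa2 and of Dppa4, and the ratio of both within each library, against the labelled time point in hours; red points are treated libraries, dark points untreated ones, bars the mean ± SD of 3 libraries. The ratio is below 1 in every library at 4 h and 6 h and above 1.48 in every treated library at 24 h.

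Dppa3 and Dppa5a did not pass the test against untreated cells at any time. Dppa3 (chr6:122626410-122630272, plus strand) was barely transcribed, at 0.787, 0.741 and 0.722 FPKM at 6 h, against 1.11, 0.885 and 2.18 FPKM in untreated cells at 0 h. These libraries did not overlap but the change was -0.41 ± 0.19 (adjusted p = 0.093), with -0.48 at 8 h (adjusted p = 0.0514) and -0.48 at 10 h (adjusted p = 0.0608). Dppa5a (chr9:78367052-78368177, minus strand) was the most abundant of the 10, at 1361 to 1556 FPKM at 6 h, against 1478, 1425 and 2234 FPKM in untreated cells at 0 h. Its change was -0.20 ± 0.17 at 6 h (adjusted p = 0.37) and -0.44 at 10 h (adjusted p = 0.0502, or 0.0288 with the replicate number as a block), and without the 4 libraries that at 10 h was -0.40 and passed (adjusted p = 0.00605). The near-identical copies Dppa5b and Dppa5c averaged 8.56 and 8.12 FPKM, and since the treatment of reads shared between copies was not stated, the Dppa5a values are uncertain.

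**Figure D3:**
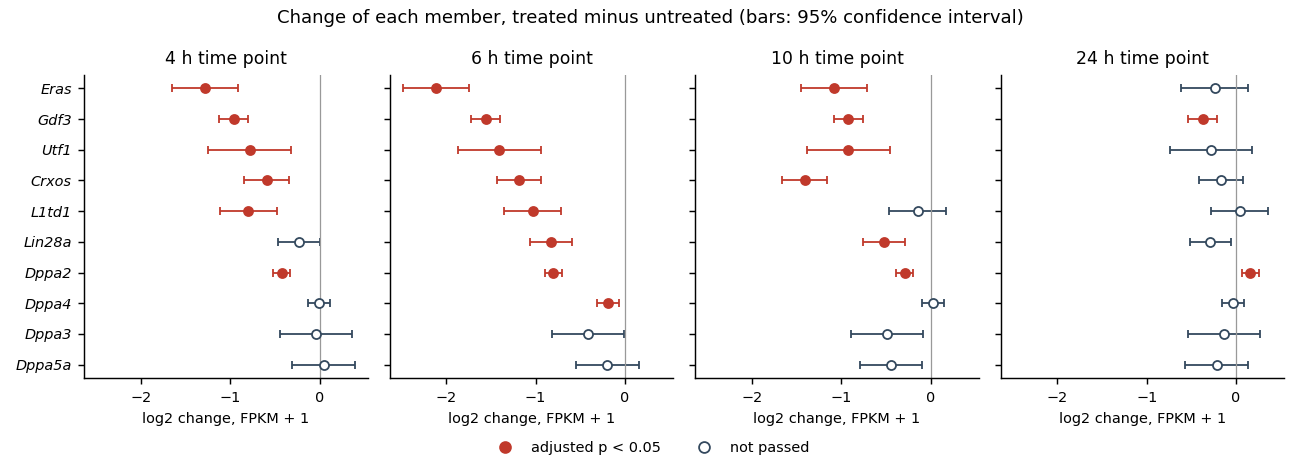
Log2 change of FPKM + 1, treated minus untreated, for each gene at 4 h, 6 h, 10 h and 24 h (points, with the 95% confidence interval of the limma fit); filled red points have an adjusted p below 0.05. At 6 h 8 of 10 genes are filled and lower, and at 24 h Gdf3 (lower, -0.37) and Dppa2 (higher, 0.16) are filled.

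By 24 h 1 of the 10 genes was lower than in untreated cells of that time (Gdf3) and 1 was higher (Dppa2), against 4.28% and 8.63% of all tested genes and 12.9% in either direction. Without the 4 libraries the counts were 4 lower (Gdf3, Utf1, Dppa5a and Lin28a) and 1 higher (Dppa2), and over all tested genes 2484 lower and 4503 higher, against 582 and 1175 with all libraries. The means of the 10 genes in treated cells were 76.9% to 111.7% of those in untreated cells, and 4 genes had all treated libraries below all untreated ones (Utf1, Dppa5a, Gdf3 and Lin28a), against 19.4% of all tested genes. Other measures also set these groups apart. Primitive endoderm markers summed to 117 to 121 FPKM in treated and 80.1 to 84.2 FPKM in untreated cells, mainly Sparc, with Gata4, Gata6 and Sox17 below 1 FPKM in all libraries. Trophoblast markers summed to 32.4 to 38.8 FPKM in treated and 16.8 to 23.5 FPKM in untreated cells, mainly Krt8, with Elf5 at no more than 0.039 FPKM. Hepatocyte markers summed to 1.61 to 2.25 FPKM in treated and 56.8 to 76.8 FPKM in untreated cells, and the ribosomal protein shift was -0.139 to -0.0684 in treated and 0.144 to 0.443 in untreated cells. Their part in the 24 h values was not tested.

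The 24 h change was above the 10 h change for 4 of the 10 genes in a test of that difference, Crxos by 1.24 ± 0.17, Eras by 0.84 ± 0.25, Gdf3 by 0.55 ± 0.11 and Dppa2 by 0.45 ± 0.06 (SE; adjusted p = 5.82e-05, 0.0421, 0.00295 and 1e-04). Of all tested genes 2.95% were higher by the same test and 8.7% differed in either direction. Eras passed in 12 of 24 alternative fits, and Gdf3 was lost with only the groups compared (adjusted p = 0.0588). Between untreated cells at 24 h and at 0 h none of the 10 passed, with 0 at an unadjusted p below 0.05 and 0.705% of all tested genes changed; without the 4 libraries Dppa5a was higher (0.28) and L1td1 and Lin28a were lower (-0.25 and -0.16).

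Step by step, 6 of the 10 fell between 2 h and 4 h (Eras, Utf1, Dppa2, Crxos, Gdf3 and L1td1) and 6 between 4 h and 6 h (Eras, Dppa2, Dppa4, Crxos, Gdf3 and Lin28a), against 9.89% and 8.48% of all tested genes. The Dppa4 step (-0.18, adjusted p = 0.0388) was lost under scaling (adjusted p = 0.151), after the GC and length correction (0.0604) and in 5 leave-one-out fits (0.0733 to 0.173), and the L1td1 step with only the groups compared (0.0738). From 6 h to 8 h 4 rose (Eras, Dppa2, Gdf3 and L1td1), against 18.1%, and from 10 h to 24 h 4 rose (Eras, Dppa2, Crxos and Gdf3), against 8.18%. Between 8 h and 10 h the limma fit called 0 of the 10, with 0 at an unadjusted p below 0.05, against 5.37% of all tested genes called. The Utf1 step from 2 h to 4 h was -0.67 (adjusted p = 0.036) and was lost without 2 h replicate 1 (-0.43, adjusted p = 0.21), without any 1 of the 4 h libraries (adjusted p = 0.065 to 0.105), with no filter (0.0793), under scaling (0.0642) and with only the groups compared (0.0962). Eras, Gdf3 and Dppa2 passed in 4 steps each.

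The authors' deposited table marked fewer of these genes as significant, all of them lower: Eras at 4 h, Eras, Utf1, Crxos, Gdf3 and L1td1 at 6 h, Eras, Utf1, Crxos and Gdf3 at 8 h, Eras and Crxos at 10 h, and none at 0.5 h, 2 h or 24 h. The sources used here do not give the criteria of the mark. In the authors' deposited table Dppa2 at 6 h had a log2 fold of -0.82 and a q-value of 3.32e-07 without the mark, and Lin28a -0.87 and 2.43e-06. Gdf3 at 4 h (-0.985, q-value 6.39e-06) was unmarked and Utf1 at 8 h (-1.02, q-value 0.0109) was marked. At 24 h Gdf3, Lin28a, Dppa5a, Utf1 and Eras had q-values of 7.11e-09, 1.11e-06, 0.000724, 0.00234 and 0.0447, all lower and unmarked. Utf1 at 10 h (-0.993, q-value 0.0343) and Dppa3 at 10 h (-1.06, q-value 0.173) were also unmarked. Among these 10 genes every marked value was a fall of more than 2-fold with a q-value below 0.05, and no unmarked value was both. The mark therefore does not rest on the q-value alone, and its counts are not at the threshold of the limma calls.

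The 10 genes varied together to different degrees. Over the 9 group means of log2(FPKM + 1), Pearson's r was 0.990 between Eras and Gdf3, 0.952 between Utf1 and Gdf3 and 0.945 between Eras and Dppa2, while Dppa4 had r between -0.097 and 0.385 with the others and Dppa5a between -0.184 and 0.631. These are descriptions over 9 points that share libraries, with no test. Among 7171 tested genes whose group means spanned at least 0.5, the most similar course was that of Zfp428 for Eras (r = 0.993), Fbxo15, itself a gene of embryonic stem cells, for Dppa2 (0.989), Mrpl51 for Gdf3 (0.985), Angptl6 for Utf1 (0.988), Gsta3 for Crxos (0.990), Igf2bp1 for L1td1 (0.991) and Aatf for Lin28a (0.994). At 6 h Zfp428 had a log2 change of -1.94 and Fbxo15 of -1.11.

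Neighbouring genes on the chromosome did not all move together. Gdf3 and Dppa3 lie 16323 bases apart on chromosome 6, with Apobec1 2959 bases before Gdf3 and Nanog 77217 bases after Dppa3. At 6 h Nanog, a core pluripotency factor, was at 89.8 ± 0.11 FPKM, against 344 ± 42.0 FPKM in untreated cells (SD, n = 3 each; log2 change -1.92, adjusted p = 8.84e-14), and Apobec1, a cytidine deaminase, was at 9.86 ± 0.06 FPKM, against 3.53 ± 0.38 FPKM (1.26, adjusted p = 5.11e-10). Around Dppa4 and Dppa2, Nectin3 before and Morc1 after them had changes of -0.36 and -0.85 (adjusted p = 0.000871 and 2.39e-11).

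Other genes restricted to embryonic stem cells fell as well. Of 20 such genes with a row, the test held 19, and at 6 h 15 were lower and 1 higher, with a median change of -0.63 against 0.00 for all tested genes. Of all tested genes 20% were lower and 22.3% higher at that time. Tdgf1, the Nodal co-receptor, had a change of -1.21 (adjusted p = 3.92e-14). Nr0b1, a nuclear receptor, was the 1 that rose (0.26, adjusted p = 0.0207). At 24 h 3 of the 19 were lower (median 0.04).

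Pluripotency transcription factors and signal mediators, 16 genes, split more. At 6 h 8 were lower and 2 higher, with a median of -0.55. Nanog and Prdm14, a repressor of lineage genes, had the largest falls (-1.92 and -1.89; adjusted p = 8.84e-14 and 5.26e-10), and Stat3, which carries the leukemia inhibitory factor signal, and Klf5 rose (0.62 and 0.56; adjusted p = 0.000372 and 0.000159). The other 6 did not pass. At 24 h the median of the 16 was 0.07.

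Genes around Gdf3 and Nodal signalling numbered 17 tested, of which 6 were lower and 2 higher at 6 h (median -0.05). These 8 of 17 are close to the 42.3% of all tested genes that changed, 20% lower and 22.3% higher. The Nodal targets and inhibitors Lefty2 and Lefty1 were at 1.98 ± 0.38 and 0.861 ± 0.31 FPKM at 6 h, against 7.74 ± 0.25 and 4.48 ± 1.20 FPKM in untreated cells (SD, n = 3 each; changes -1.56 and -1.55, adjusted p = 8.02e-11 and 6.93e-08). At 10 h both were higher than in untreated cells at 0 h, at 20.4 ± 0.26 and 14.9 ± 2.52 FPKM, with changes of 1.29 and 1.55 (adjusted p = 7.6e-09 and 2.62e-07). At 24 h they were lower, at 10.9 ± 0.99 and 5.37 ± 0.53 FPKM in treated cells, against 20.9 ± 2.45 and 12.6 ± 1.65 FPKM in untreated cells (adjusted p = 1.19e-05 and 0.000121). Untreated means of both genes were thus higher at 24 h than at 0 h, and untreated cells were not collected at 10 h. The pathway's transducers Smad3 and Acvr1b, an activin receptor, rose at 6 h (0.84 and 0.75; adjusted p = 6.94e-05 and 0.000662).

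Around Lin28a, the list of 20 genes of the let-7 pathway and let-7 targets had 6 lower and 2 higher at 6 h (median -0.16). These 8 of 20 are close to the 42.3% of all tested genes that changed, 20% lower and 22.3% higher. Ccnd1, a cyclin, and Igf2bp1, an RNA-binding protein, fell (-0.995 and -0.71; adjusted p = 7.55e-07 and 4.62e-05). Tut7, a uridylyl transferase that acts on let-7 precursors, and Cdc25a, a cell cycle phosphatase, rose (1.06 and 0.54; adjusted p = 5.8e-05 and 0.00542). The let-7 RNAs themselves were not measured, since the libraries hold poly(A) RNA.

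Around Eras, 25 RAS and PI3K pathway genes had 6 higher and 2 lower at 6 h (median 0.01), a share higher that is close to the 22.3% of all tested genes and a share lower that is below their 20%. Foxo3, a transcription factor that PI3K signalling restrains, was at 22.7 ± 0.55 FPKM at 6 h, against 9.40 ± 4.42 FPKM in untreated cells (SD, n = 3 each; 1.30, adjusted p = 0.000651), and Pik3cb, a catalytic subunit, rose by 0.89 (adjusted p = 0.00198). The RAS family members Rras2 and Nras fell (-0.61 and -0.28; adjusted p = 4.31e-06 and 0.0123).

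Around Dppa2, Dppa4 and Dppa3, 11 tested 2-cell embryo genes had 1 higher at 6 h, Zfp352 (0.42, adjusted p = 0.022), at 1.01 ± 0.17 FPKM against 0.512 ± 0.26 FPKM in untreated cells (SD, n = 3 each). At 24 h 5 of the 11 were higher, against 8.63% of all tested genes, with a median of 0.52 against 0.07 for all tested genes. All 5 belong to the Zscan4, Usp17l and Tdpoz gene families. The treatment of reads shared between copies was not stated, so these 5 cannot be counted as independent genes. Of 12 tested genes of DNA methylation and its protection 5 were lower and 0 higher at 6 h. Of all tested genes 20% were lower and 42.3% changed in either direction, and 5 of 12 is close to the second share. Among the 5 were Dnmt3l, a cofactor of the de novo methyltransferases (-0.62, adjusted p = 2.62e-05), and Trim28, a co-repressor (-0.46, adjusted p = 4.9e-05). Some of these lists share genes, such as Tdgf1, Dnmt3l and Nras, and the lists were described by counts and medians only. Their values rest on all 27 libraries, with untreated 0 h replicate 3, which stands apart, in the control at 6 h.

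**Figure D4:**
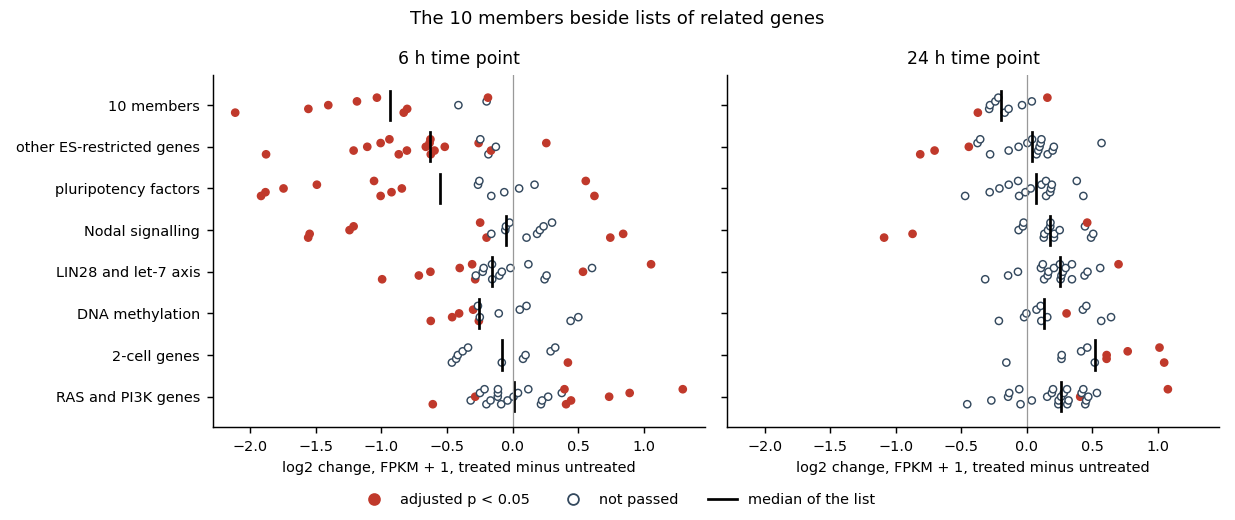
Log2 change of FPKM + 1, treated minus untreated, at 6 h and at 24 h for each tested gene of the 10 members and of 7 lists of related genes; filled red points have an adjusted p below 0.05 and black bars are list medians. At 6 h the medians are -0.93 for the 10 members, -0.63 for the other restricted genes and -0.55 for the pluripotency factors, and at 24 h -0.19, 0.04 and 0.07.

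How the libraries were handled moved the 6 h change least for Dppa2 and Gdf3 and most for Utf1 among the 7 genes given here. Over the alternatives the 6 h change ran from -2.34 to -1.89 for Eras, from -1.61 to -1.44 for Gdf3, from -1.38 to -1.04 for Crxos and from -0.84 to -0.78 for Dppa2. It ran from -1.59 to -1.02 for Utf1, from -1.24 to -0.91 for L1td1 and from -1.001 to -0.74 for Lin28a. Hepatocyte transcripts were high in 6 h replicate 3 alone among the 6 h libraries, and Eras was at 4.37 FPKM there and at 3.37 and 4.18 FPKM in the other two.

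**Figure D5:**
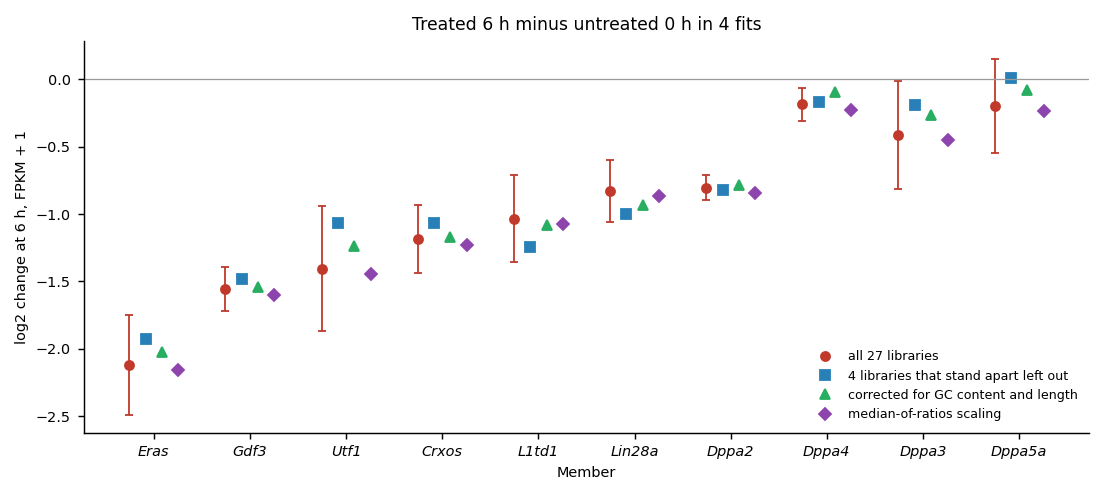
Log2 change of FPKM + 1 at 6 h, treated minus untreated 0 h, for each gene in 4 fits: all 27 libraries (red, with the 95% confidence interval), the 4 libraries that stand apart left out (blue), a correction for GC content and length (green) and median-of-ratios scaling (purple). The sign is the same in all 4 fits for 9 genes; Dppa5a is at -0.20 with all libraries and at 0.01 without the 4.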

How the data were processed

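The 27 libraries were paired-end poly(A) RNA libraries. Tools in the submitters' processing notes are HISAT2, StringTie, edgeR, cutadapt and FastQC, with build mm10; versions and settings are not given in these sources. Per the file headers, the authors deposited 7 tables, 1 per treated time, with FPKM per library, a fold ratio of group means with its log2, a p-value and a q-value. Duplicate columns were identical, and 0 columns belonged to other samples. Read counts were not used here, so depth is unknown.

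The 13614 genes that reached 1 FPKM in 3 or more libraries entered a limma 3.58.1 model (R 4.3.3) of log2(FPKM + 1), with a mean-variance trend, 1 mean per group and Benjamini-Hochberg adjustment within each contrast. The treated times up to 10 h share the untreated 0 h control, and no untreated group was collected at those times. The p-values measure the spread between the 3 replicates of a group, pooled over groups. The pipeline was tested on simulated data. Same-numbered libraries deviated together (correlation above 0.1) in all 3 pairs for 8 h and 10 h with untreated 0 h (0.464 to 0.691 and 0.558 to 0.797). The same held for 10 h with 8 h (0.301 to 0.668). In these groups each replicate 3 is a library that stands apart, so these correlations cannot tell pairing by time course from that shared difference. In the other comparisons not all 3 pairs were above 0.1. Positions came from GENCODE M21 (GRCm38) and promoter sequence from RefSeq.

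Genes named were the 10 members, up to 2 rises and 2 falls per list at 6 h, the closest courses over 9 groups, and neighbours of adjacent members; Pcsk1n and the Dppa5a copies were named for overlap or likeness. Members and lists were chosen with earlier results of these data known. Alternatives were other pseudocounts, filters, scaling, no trend, a replicate block, only the groups compared, library weights, a GC and length correction, both untreated groups as control, a minimum change of 2-fold, and libraries left out. Leaving out the 4 libraries with scaling was added after seeing the data. Protein sequence was not used here, and 1 gene that the naming rule picked is not reported here.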

Additional observations from a re-analysis of the deposited data

Results flagged for a closer look

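The difference between the 24 h change (against untreated 24 h) and the 10 h change (against untreated 0 h) passed the limma test of that difference for 4 of the 10 genes. Crxos had 1.24 ± 0.17 (SE; adjusted p = 5.82e-05), with changes of -0.17 at 24 h and -1.41 at 10 h. Eras had 0.84 ± 0.25 (adjusted p = 0.0421), with -0.24 at 24 h and -1.08 at 10 h. Gdf3 had 0.55 ± 0.11 (adjusted p = 0.00295), with -0.37 at 24 h and -0.92 at 10 h. Dppa2 had 0.45 ± 0.06 (adjusted p = 1e-04), with 0.16 at 24 h and -0.29 at 10 h. The 2 changes have different untreated controls, and hepatocyte markers summed to 56.8 to 76.8 FPKM in untreated cells at 24 h and 1.85 to 9.20 FPKM at 0 h; the part of this in the differences was not tested. Utf1, L1td1 and Lin28a did not pass with all libraries (0.64, 0.18 and 0.23) and passed without the 4 libraries that stand apart (0.48, 0.27 and 0.30; adjusted p = 0.0117, 0.0205 and 0.00519).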

How the results depend on the processing

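None of the 54 values that passed the limma test among the 10 genes changed sign in any of the alternatives that gave a value. The single reversal was Lin28a between untreated 24 h and untreated 0 h, 0.01 with all libraries, -0.15 with library weights and -0.16 without the 4 libraries that stand apart. Of 2012 alternative values for changes that had not passed, 176 changed sign and passed in neither fit. Counts of changed genes moved as follows. With only the groups compared they were 3 at 4 h, 7 at 6 h, 4 at 8 h, 2 at 10 h and 2 for the 24 h change minus the 10 h change, where fewer libraries estimate the spread. Library weights gave 2 at 2 h, 6 at 24 h, 3 between untreated groups and 7 for that difference, and leaving out the 4 libraries gave 1, 5, 3 and 7, or 1, 6, 2 and 7 with scaling as well. The GC and length correction gave 1 at 2 h and 1 between untreated groups. A minimum change of 2-fold left 2 at 6 h (Eras and Gdf3) and 0 at 4 h, 8 h, 10 h and 24 h. With only the groups compared, the lost calls against untreated cells also had larger standard errors, such as 0.104 against 0.0454 for Dppa2 at 10 h. Apart from the minimum change, the cause of these moves was not tested. Leaving out 1 library in turn gave 0 to 0 at 0.5 h and 2 h, 6 to 6 at 4 h, 7 to 9 at 6 h, 6 to 7 at 8 h, 6 to 8 at 10 h, 1 to 2 at 24 h, 0 to 0 between untreated groups and 3 to 4 for that difference.

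Scaling raised the number of all tested genes that fell to 2603 at 8 h and 2092 at 10 h, against 1576 and 1284, and 9 and 8 of the 10 genes were then lower. Over all groups 35 of 108 same-numbered pairs correlated above 0.1 (median 0.037), and 67 correlated more than the mean of the pairs with other numbers. In untreated 0 h, 8 h and 10 h it is replicate 3 that stands apart, and at 2 h replicate 1. Untreated 0 h with 2 h gave -0.799, 0.639 and -0.766 for replicates 1, 2 and 3. The correlations therefore cannot tell pairing apart from which replicate stands apart, and the block was kept as an alternative. With a replicate block the counts were 6, 8, 6 and 7 at 4 h, 6 h, 8 h and 10 h and 2 at 24 h, and the 1 added at 10 h was Dppa5a; the block changed no other call against untreated cells. FPKM without counts gives no interval for single values, and Dppa3, near 1 FPKM, is the least precise.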
